A study of Mus musculus with 4 samples.

Results

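The CSF1R, TGF-beta and fractalkine pathways were followed through 10 genes: the ligands Csf1, Il34, Tgfb1, Tgfb2 and Cx3cl1, the receptors Csf1r, Tgfbr1, Tgfbr2 and Cx3cr1, and the transcription factor Sall1. They were taken by symbol from the 46983 genes of the count tables, and all 10 were found, 5 on the ligand side and 5 on the receptor side (Sall1 counted with the receptors). Single nuclei of mouse brain were sequenced in droplets, in 4 libraries: a sham control, and days 1, 3 and 7 after the middle cerebral artery had been closed for good by coagulating and then cutting it (MCAO), which leaves a small infarct in the parietal cortex. All libraries came from 3 month old male C57Black/6 mice, and each pooled 3 hemispheres, so that every group is 1 library with no replicate. No p-value is given, and every interval is a 95% interval that covers counting error only.

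The labels limit what each group stands for. The injured groups are whole injured hemispheres, in which lesion and intact tissue cannot be told apart. For the control, 1 label names intact cortex, whereas the series design names hemispheres, and the sham control held 352 nuclei with the marker profile of striatal projection neurons. The group is labelled sham control, but the study describes its control as not injured. Whether these mice had surgery is therefore unclear, and ratios to sham control carry this doubt. The study's own numbers of nuclei per time point fit the deposited tables better if day 3 and day 7 are swapped, and the names used here are those of the deposited labels. Day 3 and day 7 therefore mean the libraries so labelled, an exchange was not tested, and values given by day, such as the 188 microglia-like nuclei of day 3, carry this doubt. The libraries held between 23285489 and 42963698 UMIs (unique molecular identifiers, each standing for 1 counted RNA molecule). After empty droplets and doublets were removed, 2114 nuclei of sham control, 1018 of day 1, 3084 of day 3 and 1570 of day 7 remained, 7786 in all, and 9 barcodes were called in more than 1 library. The day 1 library was the deepest per nucleus, with a median of 11029.5 UMIs against 5449 to 7040.5 in the others.

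CSF1R is the receptor tyrosine kinase on which the survival of microglia depends, and CSF1 and IL-34 are its ligands, with glia known as a source of the former and neurons of the latter. TGF-beta is made as a latent complex, and once released it signals through the paired receptor kinases TGFBR2 and TGFBR1 to SMAD proteins, a route that keeps up the homeostatic gene programme of microglia. CX3CL1, or fractalkine, is a membrane-bound chemokine of neurons, and its receptor CX3CR1 marks microglia in the healthy brain. SALL1 is a zinc-finger transcription factor that helps to set microglial identity. Messenger RNA in nuclei says nothing of the proteins themselves, and ligand release was not measured.

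Promoter sequence is given for Tgfbr1, Tgfbr2 and Csf1, the pair of receptor genes that share a ligand and the ligand gene with the largest difference between libraries in microglia-like nuclei. Each window runs from 250 bases before to 50 after an annotated start in RefSeq (GRCm38.p6). Windows were taken for 8 of the 10 genes, not for Il34 and Csf1r, 11 windows in all. They are printed in lower case, 5′ to 3′ on the gene's strand, with capitals for matches on either strand to 3 motifs: a PU box (GAGGAA or TTCCTC), an AP-1 site (TGACTCA or TGAGTCA) and a SMAD box (CAGACA or TGTCTG).
Tgfbr1, chr4:47352972-47353271, plus strand: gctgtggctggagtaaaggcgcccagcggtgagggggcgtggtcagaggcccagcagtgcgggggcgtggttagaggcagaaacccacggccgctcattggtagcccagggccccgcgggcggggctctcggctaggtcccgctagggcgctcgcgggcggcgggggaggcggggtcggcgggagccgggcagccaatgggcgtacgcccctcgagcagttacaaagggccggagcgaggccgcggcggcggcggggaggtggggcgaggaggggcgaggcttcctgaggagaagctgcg
Tgfbr1, another start, chr4:47385966-47386265, plus strand: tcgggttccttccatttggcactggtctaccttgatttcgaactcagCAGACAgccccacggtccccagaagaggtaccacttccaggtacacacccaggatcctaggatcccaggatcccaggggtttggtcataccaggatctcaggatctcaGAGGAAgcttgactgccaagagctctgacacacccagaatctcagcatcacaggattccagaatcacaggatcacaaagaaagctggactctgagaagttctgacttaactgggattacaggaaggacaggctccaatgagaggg
Tgfbr2, chr9:116175314-116175613, minus strand: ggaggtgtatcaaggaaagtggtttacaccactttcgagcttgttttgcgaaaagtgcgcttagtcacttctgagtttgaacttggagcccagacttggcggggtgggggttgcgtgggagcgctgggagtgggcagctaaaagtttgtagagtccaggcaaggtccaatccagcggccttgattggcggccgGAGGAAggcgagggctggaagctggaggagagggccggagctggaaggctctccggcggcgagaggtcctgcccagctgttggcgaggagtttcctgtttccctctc
Csf1, chr3:107760420-107760719, minus strand: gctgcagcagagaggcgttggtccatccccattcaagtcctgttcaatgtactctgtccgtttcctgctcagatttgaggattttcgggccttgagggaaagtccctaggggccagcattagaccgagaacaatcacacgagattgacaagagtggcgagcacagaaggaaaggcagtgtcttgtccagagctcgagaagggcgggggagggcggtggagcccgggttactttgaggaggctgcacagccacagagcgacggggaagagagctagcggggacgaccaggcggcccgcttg
The first Tgfbr1 window and the Csf1 window held no match, the other Tgfbr1 window held 1 PU box and 1 SMAD match, and the Tgfbr2 window held 1 PU box. Of the windows not shown, Cx3cl1 had 2 PU box matches, Tgfb2 had 1 PU box and 1 SMAD match, and those of Tgfb1, Cx3cr1 and Sall1 had none. Among all 32851 promoter windows of that length, 28.28% held a PU box, 21.04% a SMAD box and 5.202% an AP-1 site, so matches of this kind are common.

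Nuclei were grouped into classes from RNA markers, with the 10 genes and the pathway genes named below left out of the clustering, so that their levels by class were not set by it. The microglia-like class held 89 nuclei in sham control, 45 on day 1, 188 on day 3 and 95 on day 7. Its name rested on 16 markers, of which 15 were detected in every library and Itgam was at 0 throughout. Their summed level was itself 6633 CPM in sham control, 5970 on day 1, 9190.0 on day 3 and 7650 on day 7, lowest and highest in the same libraries as Csf1r and Cx3cr1 below; the part of this shift in the receptor results was not tested. Border macrophage markers (8 genes) were detected for 5, 3, 6 and 6 genes, with a summed level of 76.6 CPM in sham control, 95.7 on day 1, 304 on day 3 and 258 on day 7 and Lyve1 at 0 in all 4 libraries. Monocyte and granulocyte markers (8 genes) summed to between 6.96 and 64.1 CPM, with Retnlg at 0 in every library (Ly6c2 had 0 UMIs in every called barcode of the series and tells nothing here), and T cell markers (7 genes) to between 2.29 and 15.3 CPM, with Cd3e, Cd3g and Cd3d at 0.

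The microglia-like nuclei also carried RNA of other cells, and unequally between libraries. The 8 general neuron markers summed to 7754 CPM in sham control, 5499 on day 1, 3464 on day 3 and 5299 on day 7. The 12 oligodendrocyte markers summed to 1393, 1509, 1258 and 1689 CPM, highest on day 7 as Csf1 was, and their part in that result was not tested. The class joined a cluster of 388 nuclei and a cluster of 29 (7, 7, 9 and 6) that also scored for oligodendrocyte markers, and without the latter the log2 ratios of Csf1 were 0.97, 2.36 and 3.53 on days 1, 3 and 7, against 1.46, 2.1 and 3.14 with it. Nuclei with more than 2000 UMIs held 70.7% of the class total in sham control, 96.9% on day 1, 59.4% on day 3 and 76.7% on day 7, and it was in them that neuron markers were high, at 10077 CPM against 2160 in the shallower nuclei of sham control. Levels below are CPM, the UMIs of a gene scaled so that the summed class holds 1000000, in which deep nuclei weigh most. The mean over nuclei, in which each nucleus weighs alike, is set beside them where it matters.

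In sham control the receptor side was led by the microglia-like class for all 5 genes. Csf1r stood at 487 CPM (interval 410 to 575) in microglia-like nuclei and at 17.4 in the next class, oligodendrocyte precursor-like nuclei, a ratio of 28.1 (11.7 to 87.8). Cx3cr1, at 568 CPM, was 25.8-fold higher than in the next class, and Tgfbr1, at 1285 CPM, was 13.4-fold higher than in endothelial-like nuclei. Tgfbr2 was the exception, with 310 CPM (249 to 381) in microglia-like and 282 CPM (202 to 382) in endothelial-like nuclei, a ratio of 1.1 (0.752 to 1.63) that does not separate the pair. Sall1, at 139 CPM, was 3.93-fold higher than in oligodendrocyte-like nuclei.

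The ligands were spread over other classes. Csf1 was highest in oligodendrocyte-like nuclei at 81.1 CPM, 2.51-fold above astrocyte-like nuclei at 32.3 CPM. Tgfb2, the TGF-beta isoform known from glia and vessels, was highest in endothelial-like nuclei at 323 CPM, 9.16-fold above astrocyte-like nuclei. Tgfb1 was at 73.1 CPM in microglia-like and 48.1 CPM in endothelial-like nuclei, whose ratio of 1.52 (0.622 to 4.23) leaves their order open. Classes of under 20 nuclei are not ranked here.

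**Figure D1:**
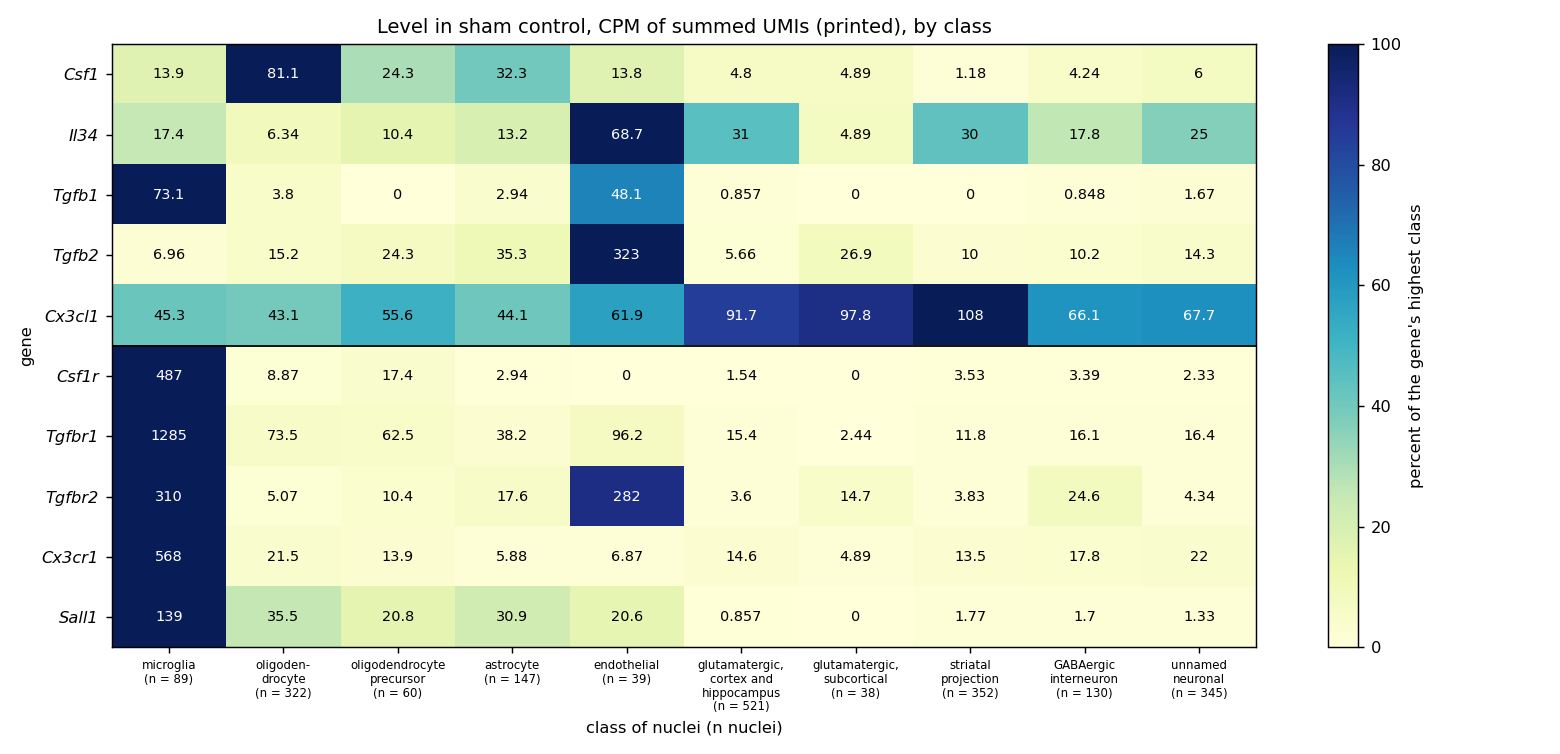
Level of each gene in sham control, in CPM of the summed UMIs (printed in each cell), for 10 classes of nuclei on the horizontal axis (n, nuclei) and the 10 genes on the vertical axis, ligands above the line and receptors with Sall1 below it. Shading gives each level as a percent of the gene's highest class; the 5 lower genes peak in microglia-like nuclei, at 487 CPM for Csf1r, and the ligands peak in 4 different classes.

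IL-34 RNA was neuronal in total but not by level. Neuronal classes together held 84.9% of the Il34 UMIs of sham control nuclei and 90.8% of those of Cx3cl1. Il34 stood at 31.0 CPM in cortical and hippocampal glutamatergic neurons, 30.0 in striatal projection neurons and 17.8 in GABAergic interneurons, and at 4.89 CPM in subcortical glutamatergic neurons. Vascular classes had higher levels from few nuclei: 68.7 CPM (33.0 to 126) in endothelial-like nuclei, and 831 CPM (532 to 1236) in 13 pericyte or smooth muscle-like nuclei, from 24 UMIs of which 37.5% lay in 1 nucleus. The pericyte-like level was 781 CPM on day 1 (10 UMIs, 8 nuclei) and 728 CPM on day 3 (24 UMIs, 18 nuclei), and on day 7 only 2 nuclei were in the class and no UMI was seen. Since these nuclei carried so few UMIs in all, they added 5.35% of the Il34 UMIs of sham control.

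Il34 passed the fold in none of the neuronal classes named here. In glutamatergic neurons they were 31.0 CPM in sham control, 29.6 on day 1, 32.4 on day 3 and 34.3 on day 7, with ratios to sham control of 0.954 (0.761 to 1.19), 1.05 (0.864 to 1.27) and 1.11 (0.89 to 1.37). In striatal projection neurons they were 30.0, 36.7, 31.0 and 28.4 CPM, and the intervals of all 3 ratios held 1. In GABAergic interneurons they were 17.8, 22.3, 26.8 and 31.6 CPM, with a ratio of 1.77 (0.987 to 3.25) on day 7, wide enough to hold both 1 and a 3-fold difference. Differences of 1.5-fold or more in either direction lie outside all 3 intervals of the glutamatergic class, as far as counting error goes. With each nucleus thinned to 1000 UMIs, however, the log2 ratio moved from 0.065 to -0.52 in glutamatergic neurons on day 3, and in striatal projection neurons from 0.29 to -0.69 on day 1 and from -0.079 to -1.31 on day 7. Among neuronal clusters, over the 4 libraries summed, the level was highest in the interneuron cluster led by Sst, the somatostatin gene, at 51.1 CPM (38.2 to 67.0), and lowest in subcortical glutamatergic neurons at 3.82 CPM (1.65 to 7.53).

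Fractalkine RNA was spread more evenly over neurons. Cx3cl1 stood at 108 CPM in striatal projection neurons of sham control, 97.8 in subcortical and 91.7 in cortical and hippocampal glutamatergic neurons, and 66.1 in GABAergic interneurons. The leading pair differed by a ratio of 1.11, less than the counting error. In cortical and hippocampal glutamatergic neurons it was lower in each injured library, at 75.9 CPM on day 1, 68.4 on day 3 and 68.6 on day 7, with ratios of 0.828 (0.723 to 0.948), 0.746 (0.662 to 0.84) and 0.748 (0.65 to 0.86); all 3 intervals exclude 1 and none reached the 1.5-fold limit used below. That limit was passed with free RNA subtracted in proportion, at log2 ratios of -0.72 on day 3 and -0.90 on day 7. In striatal projection neurons the levels were 108, 94.9, 105 and 98.3 CPM, and all 3 ratios had intervals that held 1.

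Free Cx3cl1 RNA was high in these suspensions. In droplets with at most 1000 UMIs, taken as free RNA, Cx3cl1 stood at 237 CPM in sham control, 211 on day 1, 199 on day 3 and 285 on day 7, above its level in every class of at least 20 nuclei. The 45.3 to 61.3 CPM seen in microglia-like nuclei lay below the 74.2 to 105 CPM that the free RNA alone would give there by the estimate used. Those counts cannot be told from background. The estimate takes the same number of free UMIs for each nucleus, and here it came out too high. It may be too high for other genes and shallow classes too, where it is set beside levels below. The share of glutamatergic nuclei with a Cx3cl1 UMI, with each nucleus thinned to 1000 UMIs, was 8.64% in sham control, against 4.35% in oligodendrocyte-like nuclei (58.2% and 9.63% unthinned, at median depths of 9963 and 2025 UMIs).

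**Figure D2:**
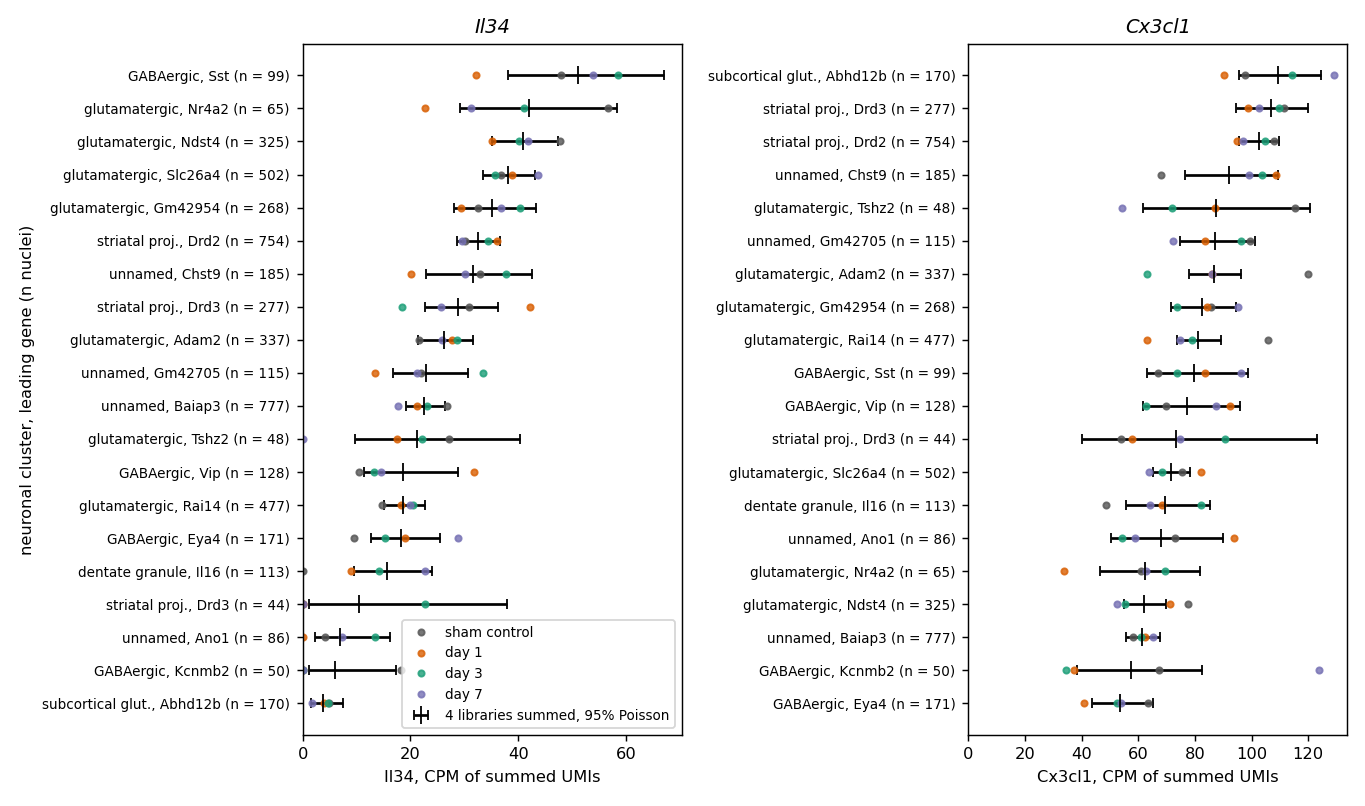
Il34 (left) and Cx3cl1 (right) in each neuronal cluster, named by its class and leading gene (n, nuclei), in CPM of the summed UMIs. Bars are the 4 libraries summed with the exact 95% Poisson interval and dots are single libraries; Il34 is lowest in the subcortical glutamatergic cluster, where Cx3cl1 is highest at 109 CPM.

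By summed UMIs, Csf1r, Tgfbr1 and Cx3cr1 in microglia-like nuclei were lowest in the day 1 library. Tgfbr2 and Sall1 could not be separated from sham control there. Csf1r stood at 487 CPM in sham control (140 UMIs), 318 on day 1 (83 UMIs), 718 on day 3 (314 UMIs) and 487 on day 7 (147 UMIs). The day 1 level was below and the day 3 level above both others, and sham control and day 7 could not be separated. The ratio to sham control was 0.652 (0.491 to 0.862) on day 1, 1.47 (1.2 to 1.81) on day 3 and 0.999 (0.787 to 1.27) on day 7, and the day 3 library was 2.26-fold (1.77 to 2.92) above day 1. With libraries merged without integration the day 3 value turned to -0.032 on the log2 scale, against 0.56 as reported.

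Tgfbr1, the type I receptor kinase, had the ratio to sham control farthest from 1 on the receptor side, on day 1. It stood at 1285 CPM in sham control (369 UMIs), 655 on day 1 (171 UMIs), 1087 on day 3 (475 UMIs) and 1080 on day 7 (326 UMIs). The day 1 level lay below the other 3, with a ratio to sham control of 0.51 (0.423 to 0.613). Days 3 and 7 lay between, at ratios of 0.846 (0.737 to 0.972) and 0.84 (0.722 to 0.978) that also exclude 1. Both turned above 1 in nuclei with more than 2000 UMIs. Over 12 alternatives the direction was kept in 9 on day 3 and 11 on day 7. As the mean over nuclei Tgfbr1 was at 2068 CPM in sham control, 1018 on day 1, 1258 on day 3 and 1491 on day 7. By summed UMIs, days 3 and 7 were 1.66-fold (1.39 to 1.99) and 1.65-fold (1.37 to 2.0) above day 1. Tgfbr2, the type II receptor that binds the ligand, did not share this: it stood at 310 CPM (89 UMIs), 291 (76 UMIs), 421 (184 UMIs) and 464 (140 UMIs), with the day 1 level next to that of sham control. Its ratios were 0.939 (0.682 to 1.29) on day 1, 1.36 (1.05 to 1.77) on day 3 and 1.5 (1.14 to 1.97, just under 1.5 before rounding) on day 7. As the mean over nuclei Tgfbr2 was at 493, 411, 475 and 662 CPM, so the order of sham control and day 3 depends on the weight of deep nuclei. With libraries merged without integration the log2 ratio turned below 0 on both days, to -0.162 and -0.069.

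Cx3cr1 stood at 568 CPM in sham control (163 UMIs), 406 on day 1 (106 UMIs), 645 on day 3 (282 UMIs) and 477 on day 7 (144 UMIs), with day 1 lowest and day 3 highest, as for Csf1r. The day 3 log2 ratio to sham control, 0.19 as reported, ranged over the alternatives from -0.42 to 0.46. Its day 1 ratio to sham control was 0.715 (0.555 to 0.919), but 0.18 above 0 on the log2 scale in nuclei with more than 2000 UMIs, and the day 3 library was 1.59-fold (1.27 to 2.01) above day 1. Sall1 stood at 139, 123, 153 and 149 CPM (40, 32, 67 and 45 UMIs), and neighbouring levels overlapped in their intervals throughout.

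The share of nuclei with a UMI gives each nucleus the same weight, and by it the order of the libraries was partly different. With each nucleus thinned to 1000 UMIs, Tgfbr1 was seen in 76.4% of microglia-like nuclei in sham control, 48.9% on day 1 (33.7% to 64.2%), 64.9% on day 3 and 71.6% on day 7. Csf1r was seen in 51.7%, 33.3%, 48.9% and 46.3%, and Cx3cr1 in 62.9%, 37.8%, 48.4% and 44.2%. Day 1 had the lowest share for all 3 genes, but sham control, not day 3, had the highest for Csf1r and Cx3cr1. In glutamatergic nuclei, which should lack Csf1r, its thinned share was at most 0.375%. The shares there were at most 1.54% for Cx3cr1 and 1.54% for Tgfbr1. Neither of these is a blank, since the glutamatergic cluster led by Slc26a4 held 14.5 CPM of Cx3cr1 and 22.1 CPM of Tgfbr1. Unthinned, Csf1r was seen in 71.9%, 73.3%, 73.9% and 74.7% of microglia-like nuclei, at median depths of 1800, 3622, 1736 and 2048 UMIs. No nucleus was too shallow to be thinned.

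**Figure D3:**
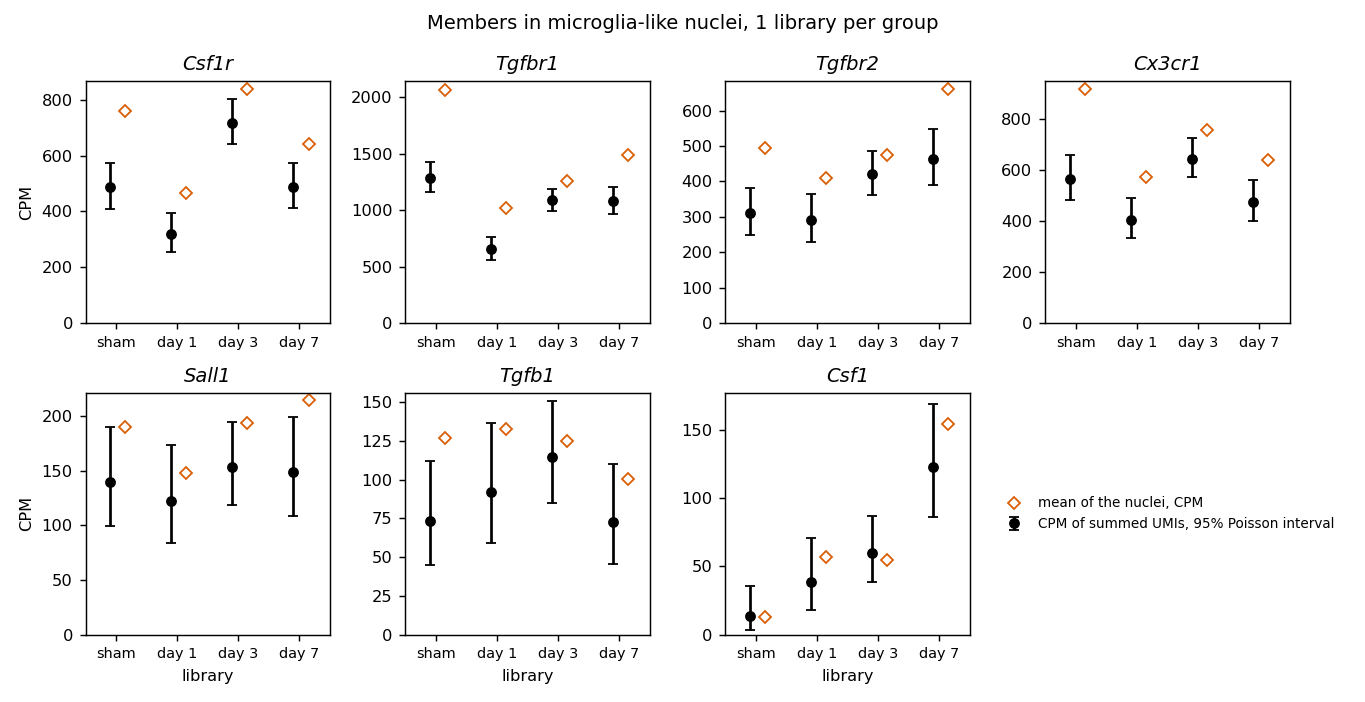
Levels of 7 genes in microglia-like nuclei of the 4 libraries (horizontal axis), in CPM. Black points are the CPM of the summed UMIs with the exact 95% Poisson interval and open diamonds the mean over nuclei; Tgfbr1 is lowest on day 1 by either measure, at 655 CPM for the sum, and Csf1 is highest on day 7, at 123 CPM.

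A ligand, Csf1, differed most of all in microglia-like nuclei. It was seen as 4 UMIs in sham control, 10 on day 1, 26 on day 3 and 37 on day 7, or 13.9 CPM (3.8 to 35.7), 38.3 (18.4 to 70.4), 59.5 (38.9 to 87.2) and 123 (86.3 to 169). The ratio to sham control was 2.75 (0.793 to 12.01) on day 1, 4.27 (1.48 to 16.8) on day 3 and 8.8 (3.16 to 34.0) on day 7, and day 7 was 2.06-fold (1.21 to 3.54) above day 3. At day 7, 29.7% of these UMIs lay in 1 nucleus and 17 of 95 nuclei held any, against 4 of 89 in sham control. With each nucleus thinned to 1000 UMIs the shares were 2.25%, 8.89%, 4.79% and 7.37% with intervals that overlap, and the thinned log2 ratio was 0.51 on day 3 against 2.1 unthinned. Free RNA would give 4.83 to 9.39 CPM of Csf1 in this class.

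Oligodendrocyte-like nuclei, the leading Csf1 source in sham control, differed between libraries by less than the counting error, with 81.1 CPM in sham control, 85.8 on day 1, 87.0 on day 3 and 98.3 on day 7 and ratios of 1.06 (0.718 to 1.55), 1.07 (0.768 to 1.51) and 1.21 (0.85 to 1.73). Astrocyte-like nuclei had 32.3, 17.8, 49.4 and 30.3 CPM, with intervals of all 3 ratios that held 1. Microglia-like nuclei held 2.38% of all Csf1 UMIs in sham control nuclei, 7.52% on day 1, 9.22% on day 3 and 20.3% on day 7, while oligodendrocyte-like nuclei held 38.1%, 38.4%, 30.9% and 37.9%. At day 7 the level in microglia-like nuclei was 1.25-fold (0.813 to 1.89) that in oligodendrocyte-like nuclei, so the order of the leading pair is open there. Within the oligodendrocyte-like class, over all 4 libraries, the cluster led by Anln had 137 CPM (106 to 175) and the main cluster 84.2 (72.5 to 97.1).

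**Figure D4:**
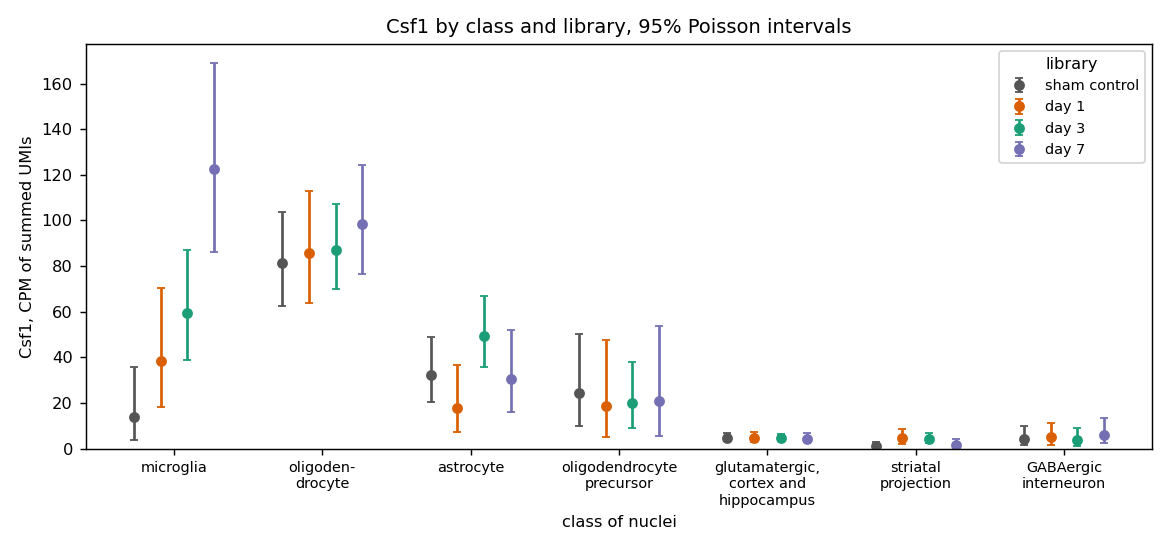
Csf1 in 7 classes of nuclei (horizontal axis) and 4 libraries (colours), in CPM of the summed UMIs with exact 95% Poisson intervals. In microglia-like nuclei the level goes from 13.9 CPM in sham control to 123 CPM on day 7, whereas the oligodendrocyte-like levels lie between 81.1 and 98.3 CPM.

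A gene was counted as past the fold where its ratio to sham control was at least 1.5 or at most its inverse, the interval excluded 1 and both sums held 10 UMIs or more together. In microglia-like nuclei on day 1, 8 of the 10 genes had enough UMIs, and 2 were lower (Csf1r and Tgfbr1) and 0 higher, where 5.33% of the 8675 genes tested were lower and 6.95% higher. At day 3, 1 of 9 was higher (Csf1) and 0 lower, against 9.49% higher and 7.09% lower among 9771 genes. At day 7, 1 of 9 was higher (Csf1 again) and 0 lower, against 6.44% and 5.18% of 8922 genes. The median log2 ratio of the genes with enough UMIs was -0.14 on day 1, 0.34 on day 3 and 0.00 on day 7, beside 0.11, 0.13 and 0.07 over all genes tested. TGF-beta ligands were not among those past the fold: Tgfb1 stood at 73.1, 91.9, 114 and 72.9 CPM (21, 24, 50 and 22 UMIs). In nuclei with more than 2000 UMIs its log2 ratio was 1.4 on day 1 and 1.48 on day 3, from 7 UMIs in sham control, against 0.33 and 0.65 over the whole class, and thinned it was -0.28 and -0.27. Also not past the fold were Tgfb2 and Il34, at 6 UMIs or fewer in any library, which is near the free RNA estimate.

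The day 1 differences of Tgfbr1 and Csf1r were smaller within depth classes than over the whole class. Among nuclei with more than 2000 UMIs the day 1 log2 ratio was -0.47 for Tgfbr1 and -0.12 for Csf1r, against -0.97 and -0.62 over the whole class. Only 5 microglia-like nuclei of day 1 were at or under 2000 UMIs, against 56 of sham control. Tgfbr1 stood at 2130 against 2349 CPM in these shallower nuclei and at 608 against 843 CPM in the deeper ones, so that both pairs lay closer than the 655 and 1285 CPM of the class. Cx3cr1 was different: it stood at 376 against 1068 CPM in the shallower nuclei, from 3 UMIs on day 1, and at 407 against 359.7 CPM in the deeper ones. With libraries merged without integration the day 1 values were -1.57 for Tgfbr1 and -1.08 for Csf1r. Their direction was the same in all 12 alternatives tried, as was that of Csf1 at each day. Neuron marker RNA and the share of deep nuclei moved with these results as given above, and their part in them was not tested.

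**Figure D5:**
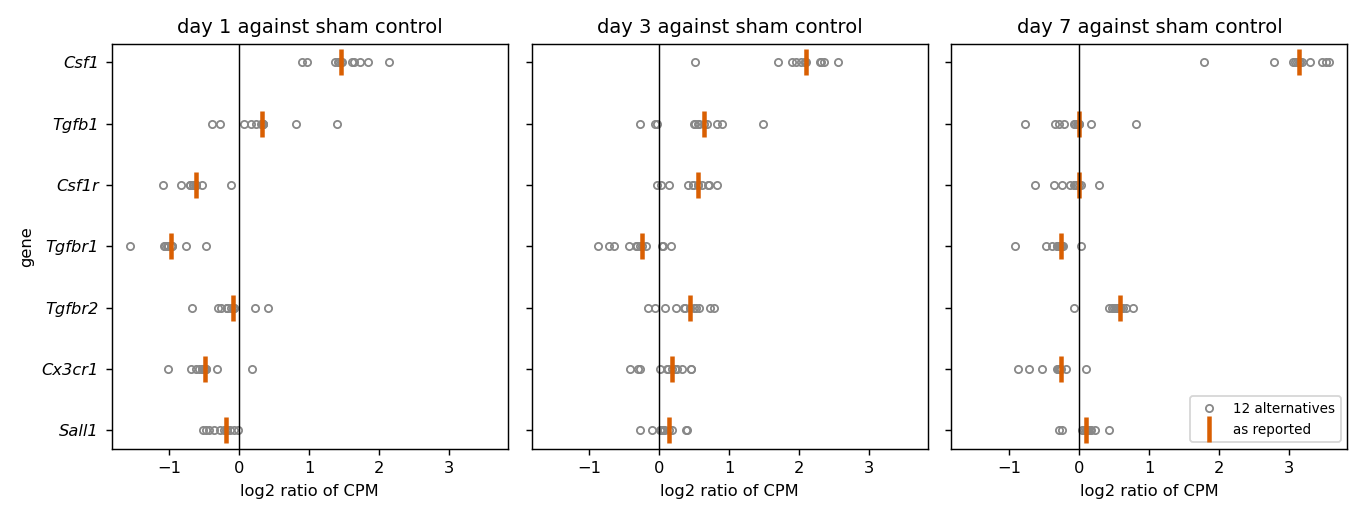
Log2 ratios of CPM to sham control (horizontal axis) for 7 genes (vertical axis) in microglia-like nuclei, 1 panel per injured library. Orange marks are the values as reported and open circles 12 alternative ways of processing; Csf1 lies right of 0 in all, from 1.78 to 3.58 on day 7, and Tgfbr1 lies left of 0 in all on day 1, from -1.57 to -0.47.

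The partners of these genes were read from 6 lists in microglia-like nuclei, 54 gene symbols named in all. Of the CSF1R axis (13 genes, 12 with enough UMIs), Cbl, the ubiquitin ligase that turns receptors over, was higher in every injured library, with 157 CPM in sham control, 264 on day 1, 256 on day 3 and 238 on day 7. Csf3r, the G-CSF receptor, was lower on day 1, at 245 against 380 CPM, and Csf2ra and the adaptor gene Tyrobp were higher on day 3, Tyrobp at 160 against 80.1 CPM. The list's median log2 ratio was 0.12, 0.42 and 0.18 on days 1, 3 and 7.

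Of 11 genes for TGF-beta receptors and SMADs, Smad3, a signal carrier downstream of TGFBR1, was lower on day 1, at 91.9 against 181 CPM, a ratio of 0.508. Smad2, at 117 against 66.2 CPM, and Smad4, at 121 against 69.6 CPM, were higher on day 3, and none of the list passed the fold on day 7. The list for the release of TGF-beta named 9 symbols, 8 of them in the files, since Lrrc33 is an older symbol of Nrros, and 3 or 4 had enough UMIs. Nrros, which holds latent TGF-beta on microglia, was lower on day 1, at 130 against 205 CPM. Thbs1, the thrombospondin gene, was seen as 1 UMI in sham control and 27 on day 3, of which 25.9% lay in 1 nucleus, and as 0 in the other libraries.

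Genes of microglia known to need TGF-beta (9 genes) included 2 that were lower on day 1: Gpr34, at 91.9 against 317 CPM, a ratio of 0.29, and Siglech, at 276 against 519 CPM. P2ry12 was at 371 against 547 CPM, a ratio of 0.68 that did not pass. The list's median log2 ratio was -0.71 on day 1, -0.04 on day 3 and 0.00 on day 7, against 0.11 over all genes on day 1, and Fcrls was higher on day 3, at 480 against 212 CPM. Several of this list are also among the markers that named the class.

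Of 9 microglial transcription factors other than Sall1, Maf was lower on day 1, at 249 against 383 CPM. Irf8 was at 0 UMIs in microglia-like nuclei of all 4 libraries. Its free RNA estimate was 0 as well in each injured library, so this 0 tells nothing of its expression. Among 3 genes for the cleavage of fractalkine, the protease gene Adam17 was higher in each injured library, at 157, 160 and 176 CPM against 94.0, and Ctss, cathepsin S, on day 3 and day 7, at 691 and 583 against 362 CPM. Over the 6 lists together, 2 genes were higher and 6 lower of 43 with enough UMIs on day 1, 9 and 0 of 45 on day 3, and 3 and 1 of 44 on day 7, to be read against the shares over all genes above. These counts rest on the processing: in nuclei with more than 2000 UMIs 9 were higher and 1 lower on day 1, with libraries merged without integration 0 and 18 on day 1 and 1 and 5 on day 3, and the day 1 balance thus turned.

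Outside microglia, some receptor genes were higher in astrocyte-like nuclei on day 3 and day 7, and Sall1 passed the fold on neither day. None of 8 genes with enough UMIs passed the fold on day 1, where 9.25% of all genes did in either direction, 3 of 9 were higher on day 3 (background 9.5%), and 4 of 9 on day 7 (background 10.1%). Tgfbr1 stood at 38.2 CPM in sham control, 40.6 on day 1, 68.1 on day 3 and 81.7 on day 7, with ratios of 1.78 (1.11 to 2.95) and 2.14 (1.25 to 3.7) at the last pair of time points. Tgfbr2 was 2.52-fold (1.16 to 5.68) higher on day 7, from 12 to 19 UMIs. Csf1r and Cx3cr1 were higher too on day 3 and day 7, but Csf1r rested on 2 UMIs in sham control, 14 on day 3 and 9 on day 7, and its 16.5 and 21.0 CPM compare with 14.1 and 10.0 CPM estimated for free RNA, which lie within the intervals of 8.99 to 27.6 and 9.6 to 39.9 CPM. Cx3cr1 rested on 4 UMIs in sham control, 22 on day 3 and 13 on day 7, and its 25.9 and 30.3 CPM lay above the 9.41 and 7.29 CPM estimated for free RNA. Csf1r in low-count droplets stood at 23.1 CPM in sham control, 21.3 on day 1, 45.3 on day 3 and 53.5 on day 7.

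In oligodendrocyte-like nuclei 0 of 7 genes passed on day 1 (background 9.21%), 2 of 9 on day 3 (background 7.28%) and 1 of 8 on day 7 (background 8.51%), and all 3 were lower. They were Tgfb2 on day 3, with 3 UMIs against 12 (8 of these in the cluster led by Anln, and a log2 ratio that moved from -2.34 to -0.79 with equal free UMIs subtracted), Sall1 on day 3, at 14.01 against 35.5 CPM, and Tgfbr1 on day 7, at 32.8 against 73.5 CPM. In cortical and hippocampal glutamatergic neurons 1 of 8 genes passed on day 1 (background 8.06%), 1 of 10 on day 3 (background 5.44%) and 1 of 8 on day 7 (background 7.85%). Tgfbr1 was lower, at 8.48 CPM on day 1 and 9.97 on day 7 against 15.4, and Csf1r, at 3.49 against 1.54 CPM, was higher on day 3, under the 5.47 CPM estimated for free RNA.

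In striatal projection neurons 2 of 8 genes passed on day 1 (background 7.77%), 3 of 9 on day 3 (background 5.77%) and 0 of 8 on day 7 (background 6.74%). Tgfbr1 was higher here, the opposite direction to the glutamatergic class, with 11.8 CPM in sham control, 27.4 on day 1 and 18.9 on day 3, ratios of 2.33 (1.52 to 3.58) and 1.61 (1.07 to 2.45). The others were Csf1 at both times, from 4 UMIs in sham control to 9 and 14, and Csf1r on day 3, at 8.27 against 3.53 CPM. In low-count droplets Csf1r stood at 45.3 CPM on day 3 against 23.1 in sham control, and Csf1 at 17.7 against 13.2. The part of free RNA in these low levels was not tested. The difference between these neuronal classes was not tested, as each rests on the same 4 libraries.

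Endothelial-like nuclei could be compared on day 3, when 3 of 8 genes passed (background 9.87%), and on day 7, when 0 of 6 did (background 8.23%). Tgfb2 stood at 323 CPM in sham control (47 UMIs), 191 on day 3 (80 UMIs) and 208 on day 7 (27 UMIs), with a ratio of 0.59 (0.406 to 0.865) on day 3, and Tgfbr1 at 96.2 CPM in sham control, 40.5 on day 3 and 84.8 on day 7, the last with a ratio of 0.882 (0.362 to 2.09). Csf1 was higher on day 3, with 25 UMIs against 2, and had 3 UMIs on day 7. Tgfbr2, in contrast, stood between 282 and 338 CPM in these 3 libraries. At day 1 the class held only 6 nuclei.

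Some of these genes overlap others, and the sources do not say whether counting used strand. In the GENCODE vM21 annotation of GRCm38, Cx3cr1 (ENSMUSG00000052336) covers chromosome 9 from 119901616 to 120069879 on the minus strand, a span that takes in Gorasp1, Csrnp1 and Xirp1 on the same strand, each of which had 0 UMIs in called barcodes. It also overlaps Wdr48 on the opposite strand, which stood at 34.8 CPM in sham control, 49.8 on day 1, 57.2 on day 3 and 62.9 on day 7 in microglia-like nuclei (10, 13, 25 and 19 UMIs), against 406 to 645 CPM for Cx3cr1. Ttc21a, also on the opposite strand, stood at 286 to 417 CPM in ependymal-like nuclei, where Cx3cr1 was at 44.6 to 93.1 CPM, while Ttc21a had at most 1 UMI in microglia-like nuclei of any library. Genes inside the span thus kept UMIs on the opposite strand (252 for Ttc21a in all called barcodes) and had none on the same strand, the pattern that counting by strand gives, so that same-strand overlaps are the uncertain ones. Csf1r (ENSMUSG00000024621, chromosome 18, 61100598 to 61132149, plus strand) overlaps the end of Hmgxb3, which stood at 34.5 to 53.0 CPM there. Tgfbr1 (ENSMUSG00000007613, chromosome 4, 47353222 to 47414931, plus strand), Tgfbr2 (ENSMUSG00000032440, chromosome 9, 116084293 to 116175360, minus strand) and Csf1 (ENSMUSG00000014599, chromosome 3, 107741048 to 107760469, minus strand) overlap no other annotated gene.

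The genes whose levels ran most like each member were found over 36 points, 9 classes in 4 libraries, among 17023 genes, by Pearson's r of log2(CPM + 10). The points share libraries, depth and free RNA, so r is a description. Csf1r ran closest to Tlr7 (r = 0.986), Dock8 and Ncf1, Tgfbr1 to Apbb1ip (0.971), Unc93b1 and Ctss, and Cx3cr1 to Bin2 (0.969), Tal1 and Ncf1. Tgfbr2 ran closest to Rasal3 (0.957), A630001G21Rik and Cd48, Sall1 to Lpar6 (0.946), Vrk2 and Ccnd3, and Tgfb1 to Gm26740 (0.983), Ncf1 and Fcgr1. On the ligand side, Csf1 ran closest to Rassf2 (0.94), Clic4 and Ppfibp2, Tgfb2 to Gpld1 (0.889), Ccdc114 and Gm20713, Cx3cl1 to 5330417C22Rik (0.903) and Clvs1, and Il34 to Dact2 (0.786), Htr2a and A830031A19Rik, the weakest likeness of the 10.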

How the data were processed

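Nuclei of 4 libraries were analysed, 1 per group, with groups taken from the labels. The authors sequenced 10x 3' libraries and deposited raw UMI counts of exonic and intronic reads per gene and barcode, made with STAR 2.7.3a (STARsolo) on GRCm38 with GENCODE vM8, with no barcode filter and no correction for free RNA. The strand used in counting was not given in the sources used here.

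Empty droplets were called again in Python 3.11.15 with a re-implementation of emptyDrops (free RNA profile from barcodes of at most 1000 UMIs, 10000 Monte Carlo draws, false discovery rate 0.001, barcodes above the knee kept), which gave 2151 nuclei in sham control, 1026 on day 1, 3164 on day 3 and 1590 on day 7. Tested on simulated shallow droplets mixed with free RNA, it took at most 0.2% of 500 empty droplets as nuclei and found 21% of 500 nuclei in the sham control setting, 58% on day 1 and 0% on day 3 and day 7, so shallow nuclei close to the free RNA profile can be missed; taking every barcode above 1000 UMIs instead is among the alternatives. Scrublet in scanpy 1.11.5 scored doublets, and the top 0.8% per 1000 nuclei, 145 in all, were removed. Clustering used Seurat 5.3.0 in R 4.3.3 with sctransform 0.4.2, anchor integration on 2956 features, 30 principal components and resolution 0.8, without the 64 gene symbols of the members and lists. The 33 clusters were named from marker lists by a rule set after the clusters had been seen.

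Counts were summed per class and library and scaled to CPM with exact Poisson intervals. Ratios to sham control carry exact conditional binomial intervals, and shares of nuclei Clopper-Pearson intervals after each nucleus was thinned to 1000 UMIs. Ratios were given for classes of at least 20 nuclei in both libraries. On simulated sums for microglia-like nuclei, 90% to 100% of 3-fold changes were found and 2.64% to 3.04% of unchanged genes were past the fold, among 8357 to 9329 genes. Free RNA per nucleus was estimated from oligodendrocyte markers in glutamatergic nuclei, at 1180.4 UMIs in sham control, 2039.6 on day 1, 1231.4 on day 3 and 1146.9 on day 7. Over all nuclei it made up 13.4% to 17.9% of the UMIs. Taken alike for each nucleus, it would be a larger part of microglia-like nuclei, whose medians in the same order were 1800, 3622, 1736 and 2048 UMIs. The members, lists and tests were chosen with earlier results of these data known. Named genes were the 10 members, the list genes past the fold in microglia-like nuclei on any day with further examples by their sham control level, and the 3 genes most like each member; some results these rules select are not reported here. P2ry12, Irf8 and the overlapping genes were added after their values were seen. Alternatives covered calling, doublets, integration, resolution, thinning, free RNA, depth, TMM scaling (edgeR 4.0.16) and gene filters.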

Additional observations from a re-analysis of the deposited data

How the results depend on the processing

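No paired analysis was possible because each group is 1 library, and for the same reason no replicate could be left out. Of 749 values recomputed under alternatives, 627 stayed within the counting interval of the reported value or, for counts and shares, within 1.5 times it, 113 moved further and 9 changed sign from a reported interval that excluded 0. Counting also values whose interval held 0, 57 of 553 recomputed log2 ratios changed sign. Resolution 1.2, all barcodes above 1000 UMIs, and a minimum of 30 UMIs per gene moved none of them. The cause of the changes was not tested. Ratios of receptor genes outside microglia-like nuclei, and all ratios in endothelial-like nuclei, were not among those recomputed.

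Log2 ratios to sham control with an interval that excluded 0 and that changed sign in microglia-like nuclei were, with the libraries merged without integration, Csf1r on day 3 (-0.032) and Tgfbr2 on day 3 (-0.162) and day 7 (-0.069). With the mean of the nuclei it was Tgfbr2 on day 3 (-0.055). In nuclei with more than 2000 UMIs they were Cx3cr1 on day 1 (0.178) and Tgfbr1 on day 3 (0.170) and day 7 (0.027). Tgfbr1 on day 3 was also 0.034 with an equal number of free UMIs subtracted and 0.052 without nuclei holding a border macrophage or monocyte marker UMI. None of these was past the fold as reported. Of those with an interval that held 0, the ranges over the alternatives were -0.42 to 0.46 for Cx3cr1 on day 3, -0.38 to 1.4 and -0.27 to 1.48 for Tgfb1 on days 1 and 3, -0.67 to 0.40 for Tgfbr2 on day 1, and -0.28 to 0.40 and -0.28 to 0.43 for Sall1 on days 3 and 7.

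Several sham control levels in microglia-like nuclei moved. For Csf1r, reported as 487 CPM, they were 719 merged, 760.3 as the mean of the nuclei, 753 thinned, 698 with equal free UMIs subtracted and 335 in nuclei above 2000 UMIs. In the same order of settings Cx3cr1 was 855, 921, 1023, 818 and 360 CPM (359.7), Tgfbr1 was 1960.4, 2068, 2056, 1862 and 843, and Tgfbr2 was 469, 493, 438, 441 and 212. Tgfb1 was 119 merged, 127 as the mean, 135 thinned and 34.5 above 2000 UMIs, Sall1 was 190.2 as the mean and 198 with equal free UMIs subtracted, and Tgfbr1 was 1501 with free RNA subtracted in proportion. Elsewhere, thinning gave 139 CPM for Cx3cl1 in striatal projection neurons, 44.2 for Il34 in glutamatergic neurons and 61.2 for Tgfb2 in astrocyte-like nuclei. Subtracting free RNA gave 84.2 CPM (in proportion) and 89.7 (equal) for Cx3cl1 in striatal projection neurons, and 118 (equal) for Csf1 in oligodendrocyte-like nuclei.

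On the receptor side the median log2 ratio in microglia-like nuclei, -0.48, 0.19 and 0.00 on days 1, 3 and 7, was -1.02, -0.28 and -0.62 merged, -0.35 on day 7 thinned and -0.019 on day 1 above 2000 UMIs, and the ligand side's on day 7 was -0.22 thinned.

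List genes past the fold in microglia-like nuclei, reported as 2 higher and 6 lower on day 1, 9 and 0 on day 3 and 3 and 1 on day 7, depended on the setting. Merged they were 0 and 18, 1 and 5, and 0 and 9. By the mean of the nuclei they were 0 and 10, 1 and 4, and 1 and 4. Above 2000 UMIs 9 were higher and 1 lower on day 1, and 15 and 7 higher on day 3 and day 7. Thinned, 0, 1 and 0 were higher on days 1, 3 and 7, with 2 lower on day 3. With TMM scaling 1 was higher on day 1, 1 lower on day 3 and 2 lower on day 7. With doublets kept 1 was higher on day 1, 5 on day 3 and 2 lower on day 7. With equal free UMIs subtracted 18 were higher on day 3 and 2 lower on day 7, and in proportion 2 lower on day 7. With every gene of at least 1 UMI tested, the shares of all genes past the fold were 4.22% higher and 3.05% lower on day 1, 5.72% and 4.66% on day 3, and 4.01% and 3% on day 7, as more genes too sparse to pass were counted.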

Other observations

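The free RNA of the 4 suspensions held the members at levels that differed between libraries. In droplets of at most 1000 UMIs, Cx3cr1 stood at 18.6 CPM in sham control, 22.2 on day 1, 30.1 on day 3 and 38.9 on day 7, and Tgfbr1 at 21.8, 18.9, 29.5 and 36.2 CPM. Il34 stood at 39.98, 41.3, 37.4 and 38.9 CPM, and Csf1 at 13.2, 14.2, 17.7 and 20.0 CPM. The source of this RNA was not tested.

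A cluster led by heat-shock and mitochondrial genes (Hspa1a and Hspa1b first) was left unnamed, with 15 nuclei in sham control, 28 on day 1, 96 on day 3 and 31 on day 7. In it Tgfbr1 stood at 21.0 CPM (2 UMIs), 14.6 (4 UMIs), 42.7 (19 UMIs) and 86.8 (17 UMIs), and Tgfbr2 at 0, 0, 17.97 and 30.6 CPM. With 15 nuclei in sham control no ratio is given.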
